A study of Mus musculus with 7 samples.

Results

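Expression of 10 genes of the TNF and NF-κB pathway was examined in microglia of young and old mice with brain ischemia: the cytokine Tnf, its receptors Tnfrsf1a and Tnfrsf1b, the subunits Rela, Relb, Nfkb1 and Nfkb2, and the inhibitors or cofactors Nfkbia, Nfkbiz and Tnfaip3. The genes were taken by symbol out of 50686 in the data, by their role in the pathway and with earlier results of these data known. All 10 passed the filter on low counts, with 17559 genes in total. By edgeR and limma-voom on all libraries none differed between ages after adjustment over all genes, and by DESeq2 3 were lower in old (Rela, Relb and Tnfaip3). Rela, Relb, Nfkb2 and Tnfaip3 were lower in each of the 3 old libraries than in any young one, which held for 9.07% of all genes tested. Tnf, Nfkbia, Nfkbiz and Tnfaip3 split the old mice, with libraries 2posI and 3posI at 28.3 to 51.4% of the young mean and library 4posI at 84.6 to 140.2%.

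TNF is a cytokine released by activated microglia and macrophages. It binds TNFR1, found on most cells, and TNFR2, which is more restricted to immune and endothelial cells. The receptors recruit adaptor proteins and the IKK kinases, which mark the inhibitor IκBα for degradation and free dimers of NF-κB subunits to enter the nucleus. NF-κB then switches on cytokines and chemokines, and also its own brakes, among them IκBα and the ubiquitin-editing enzyme A20. In the ischemic brain, microglia are a known early source of TNF.

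The cells were CD11b+ CD45+ microglia of C57BL/6 male mice, 3 to 4 months old (Young, 4 libraries named 14C, 18C, 23C and 29C) or 21 to 22 months old (Old, 3 libraries named 2posI, 3posI and 4posI). All mice had a transient occlusion of the middle cerebral artery 4 days before sorting, and all cells were Bodipy+, that is, bright with a dye for the neutral lipids of lipid droplets. No library here comes from a mouse without ischemia or from Bodipy- cells. The values thus compare ages within cells sorted as lipid-rich microglia after stroke. Each library held the RNA of 1 mouse, amplified from low input without strand information, and p-values describe the spread between these mice.

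Total expected counts were 45379786 to 53002386 in young and 36574083 to 46133564 in old libraries, and each of the 10 genes had at least 656 counts in every library. Counting error was thus small beside the difference between mice, and the biological coefficient of variation over all genes was 37.2%. All 7 microglia markers, P2ry12, Tmem119 and Cx3cr1 among them, were counted in every library. Their summed level was lowest in old library 3posI, at 2126 TPM (transcript abundance corrected for length and scaled to the same total in each library) against 3606 to 8527 TPM in the others. The same library had the most of 6 markers of infiltrating monocytes, Ly6c2 and Ccr2 among them, at 2071 TPM against 24.0 to 100.8 TPM in young libraries and 78.5 and 149.8 TPM in 2posI and 4posI. Ly6c2 was at 0.946 to 2.86 CPM in young and 15.3, 162.3 and 9.59 CPM in 2posI, 3posI and 4posI. In CPM, Ly6c2 and Plac8 were higher in every old than in every young library, against 8.67% of all genes. For the other markers of this list, Ccr2, Chil3, S100a4 and Vcan, the ages overlapped. The part of these cells' markers in the results was not tested. In sorted bulk samples, fewer cells of a type and less RNA per cell cannot be told apart.

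The DNA just upstream of the members shows which of them carry a binding sequence for NF-κB close to the start of transcription. RefSeq promoter windows, from 250 bases before to 50 bases after each start on GRCm38.p6, held 7 of the 10 genes, some with several starts. Nfkb1, Relb and Nfkbiz were not among them. On either strand, the full κB consensus of 10 bases was found in windows of 3 of the 7 genes, Tnfaip3, Nfkbia and Nfkb2, against 9.55% of all 27025 genes. By window, it was in 5 of the 10 windows of members and in 8.46% of all 32851 windows. Of these 5 windows, 3 belong to Nfkb2, and 2 of those overlap and share 1 match. The windows below are those of the feedback inhibitors that hold it and 2 of the 3 of Nfkb2 that do, with the Tnf window for comparison, and capitals mark the matches. They lie at chr10:19015361-19015660 (minus strand) for Tnfaip3, chr12:55492598-55492897 (minus) for Nfkbia, chr19:46304487-46304786 and chr19:46305445-46305744 (both plus) for 2 starts of Nfkb2, and chr17:35201958-35202257 (minus) for Tnf.
Tnfaip3: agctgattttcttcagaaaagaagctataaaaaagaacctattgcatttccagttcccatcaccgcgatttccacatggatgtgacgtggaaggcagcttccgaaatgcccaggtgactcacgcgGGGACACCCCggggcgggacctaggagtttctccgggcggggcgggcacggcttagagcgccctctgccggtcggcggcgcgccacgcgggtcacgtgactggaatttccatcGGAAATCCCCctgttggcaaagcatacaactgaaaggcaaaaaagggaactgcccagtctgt
Nfkbia: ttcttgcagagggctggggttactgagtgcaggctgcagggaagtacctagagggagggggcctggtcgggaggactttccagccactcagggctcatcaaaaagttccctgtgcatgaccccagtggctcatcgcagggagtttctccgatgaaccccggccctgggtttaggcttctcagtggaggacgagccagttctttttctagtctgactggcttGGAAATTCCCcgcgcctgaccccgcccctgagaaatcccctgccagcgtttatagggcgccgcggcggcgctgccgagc
Nfkb2 start 1: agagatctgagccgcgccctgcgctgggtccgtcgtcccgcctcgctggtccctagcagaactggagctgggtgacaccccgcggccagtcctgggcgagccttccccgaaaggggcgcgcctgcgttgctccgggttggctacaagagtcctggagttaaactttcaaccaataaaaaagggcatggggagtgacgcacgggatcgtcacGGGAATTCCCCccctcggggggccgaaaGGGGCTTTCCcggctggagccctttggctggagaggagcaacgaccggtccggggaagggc
Nfkb2 start 2: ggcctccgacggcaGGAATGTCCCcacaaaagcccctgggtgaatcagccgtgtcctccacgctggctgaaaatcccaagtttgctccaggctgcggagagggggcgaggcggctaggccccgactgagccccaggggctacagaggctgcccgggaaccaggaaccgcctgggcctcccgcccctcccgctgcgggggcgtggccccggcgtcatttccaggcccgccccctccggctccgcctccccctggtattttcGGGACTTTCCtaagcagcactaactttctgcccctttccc
Tnf: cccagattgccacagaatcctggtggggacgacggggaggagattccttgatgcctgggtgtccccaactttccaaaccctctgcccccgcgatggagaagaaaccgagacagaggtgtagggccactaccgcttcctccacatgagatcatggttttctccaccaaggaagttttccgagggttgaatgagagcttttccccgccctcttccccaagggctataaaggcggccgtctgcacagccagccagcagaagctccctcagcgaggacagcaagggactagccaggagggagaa

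The Tnfaip3 window held 2 matches, which began 125 and 12 bases before the start. The Nfkbia window held 1, which began 29 bases before it. In the first Nfkb2 window 3 matches began 39, 38 and 11 bases before the start, of which the first and second overlapped. The second Nfkb2 window held 2 matches, 1 of them within the 50 bases after the start. The third window of Nfkb2, not printed, overlaps the second and held 1 match, which is that same site after the second start. No match lay in the windows of Tnf, Tnfrsf1a, Tnfrsf1b or Rela, which says only that these letters are not in these windows. A match is a description of sequence, and binding was not measured here.

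The levels of the genes relative to each other were compared in TPM, which takes gene length into account. Nfkbia, which encodes IκBα, was highest at a mean of 1755 TPM over the 7 libraries, followed by Tnf at 464 TPM, and each of these was above the next gene in 7 of 7 libraries. Nfkbiz at 244 TPM was above Tnfaip3 at 197 TPM in 7 of 7 libraries. The receptors followed, Tnfrsf1b at 85.6 TPM and Tnfrsf1a at 80.5 TPM, and then the subunits Rela at 63.9, Nfkb1 at 48.2, Nfkb2 at 25.4 and Relb at 19.8 TPM. Some neighbours in this order changed places between libraries, since Tnfaip3 exceeded Tnfrsf1b in 6, Tnfrsf1b exceeded Tnfrsf1a in 5, and Rela exceeded Nfkb1 in 5 of 7 libraries. The signal-induced genes thus stood above the receptors and subunits in mean level at both ages.

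**Figure D1:**
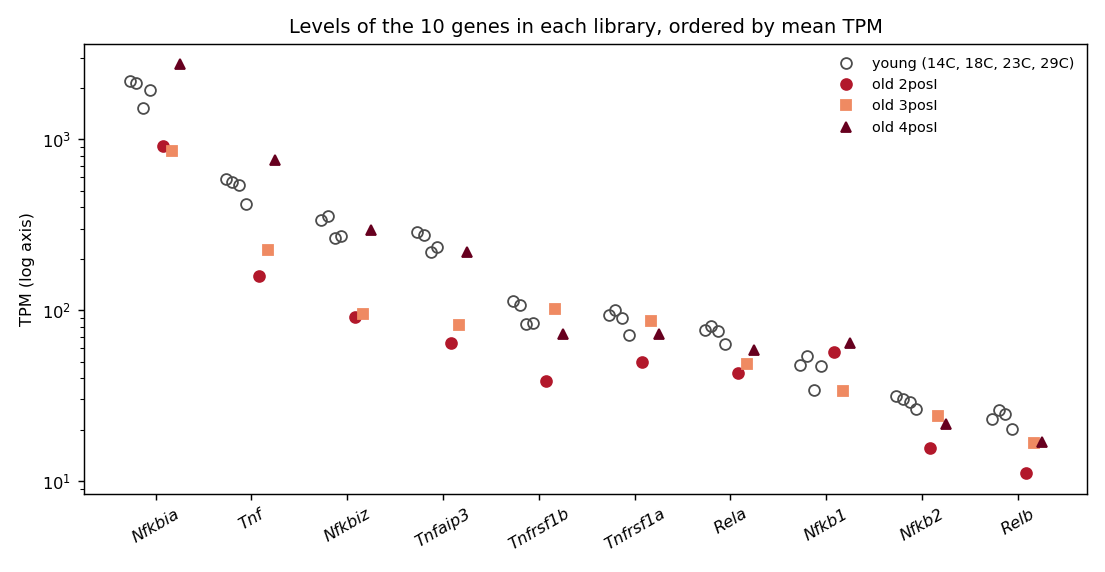
Level of each of the 10 genes in TPM (log axis), 1 point per library, with genes ordered by the mean over 7 libraries. Nfkbia and Tnf are the 2 highest genes in every library, and the old libraries 2posI and 3posI lie below the young ones for the first 4 genes.

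Tnf, the ligand (ENSMUSG00000024401, chromosome 17: 35199381 to 35202007 on GRCm38, minus strand), was measured at 669.2, 621.9, 605.5 and 510.6 CPM in young libraries 14C, 18C, 23C and 29C. CPM are counts scaled to a common library size, with TMM factors that correct for differences in composition. In old libraries 2posI, 3posI and 4posI it was measured at 204.6, 281.4 and 843.9 CPM. Libraries 2posI and 3posI were thus below all young ones and 4posI was above them. The means were 602 ± 66.5 CPM (SD, n = 4) in young and 443 ± 349 CPM (SD, n = 3) in old, and the highest old library exceeded the lowest 4.12-fold, against 1.31-fold in young. By edgeR's quasi-likelihood test the log2 fold change of old against young was -0.44 (SE 0.43, 95% interval -1.42 to 0.54, adjusted p = 0.615). The interval spans both lower and higher levels in old, so that neither direction was shown for Tnf.

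Of the receptors, Tnfrsf1a encodes TNFR1, which carries a death domain. Its level was 137.4, 137.8, 132.1 and 113.0 CPM in young and 83.9, 140.5 and 105.2 CPM in old libraries 2posI, 3posI and 4posI. The ages overlapped, since 3posI was above every young library, and the log2 fold change was -0.24 (SE 0.18, edgeR adjusted p = 0.493). Tnfrsf1b, which encodes TNFR2, was measured at 234, 215, 175.5 and 190.9 CPM in young and at 113.6, 258 and 169.4 CPM in old. Here too 3posI was the highest of all libraries and 2posI the lowest. The log2 fold change of Tnfrsf1b was -0.18 (SE 0.25, edgeR adjusted p = 0.748), and without 2posI it was 0.07. Library 3posI is the one with 2071 TPM of monocyte markers, and their part in its receptor levels was not tested. Without 3posI, both receptors were lower in CPM in every old than in every young library, as were 14.8% of all genes.

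The mean transcript length of Tnfrsf1b, as estimated by the authors in each library, separated the ages. It was 2923 to 3054 bases in young and 3274 to 3657 bases in old libraries. Over all 17559 genes, the estimated length was longer in every old than in every young library for 8.69% and shorter for 4.23%. GENCODE vM21 lists a coding transcript of 3818 bases and a short one of 375 bases, marked as a target of nonsense-mediated decay. If only these were present, the short one would make up 22.2 to 26.0% of Tnfrsf1b TPM in young and 4.68 to 15.8% in old libraries. The level of the coding transcript would then be 73.1 ± 10.3 TPM in young (SD, n = 4) and 61.9 ± 24.4 TPM in old (SD, n = 3), still with overlap between ages. Shorter lengths in old were estimated for Nfkbia, with 1229 to 1257 bases in young and 1198 to 1219 bases in old, and for Nfkbiz, with 3816 to 3824 and 3764 to 3811 bases. No test was made of these lengths, and the transcript lengths of the annotation release used by the authors were not compared.

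Among the subunits, Rela encodes p65, the main transactivating subunit of the canonical pathway. It was measured at 146.9, 150.4, 142.9 and 129.4 CPM in young and at 93.6, 101.3 and 109.8 CPM in old libraries, which did not overlap. The old libraries were at 65.7, 71.1 and 77.1% of the young mean, and the spread within each age was small, with the highest 1.16-fold above the lowest in young and 1.17-fold in old. The log2 fold change was -0.49 (SE 0.12, 95% interval -0.75 to -0.22), with an unadjusted p of 0.00247 and an adjusted p of 0.0886 in edgeR. Relb encodes a subunit of the non-canonical pathway. Its values were 36.1, 39.1, 37.1 and 33.5 CPM in young and 19.5, 28.1 and 25.2 CPM in old, again without overlap, and its log2 fold change was -0.59 (SE 0.15, edgeR adjusted p = 0.0979).

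Nfkb2, which encodes p100, the precursor of p52 and the usual partner of RelB, was measured at 67.9, 63.9, 61.9 and 61.0 CPM in young and at 38.4, 57.3 and 45.1 CPM in old. All old libraries were below all young ones, and the log2 fold change was -0.44 (SE 0.15, edgeR adjusted p = 0.168). Exons of Nfkb2 overlap those of Psd and of a long non-coding RNA on the opposite strand. Without strand information, reads in the overlap cannot be told apart by strand. The expected counts of Nfkb2 were whole numbers in 7 of 7 libraries, as where no read is split with another gene. How reads in the overlap were assigned was not tested. Nfkb1, which encodes p105, the precursor of p50, went the other way in the means. It was measured at 94.8, 90.7, 64.7 and 97.7 CPM in young and at 114.5, 69.2 and 113.6 CPM in old. The log2 fold change of Nfkb1 was 0.19 (SE 0.21, 95% interval -0.30 to 0.67, edgeR adjusted p = 0.670), and it was the only member with a higher fitted level in old.

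Of the inhibitors and cofactors, Nfkbia encodes IκBα, which holds NF-κB in the cytoplasm. It was measured at 1907, 1788, 1265 and 1789 CPM in young and at 867, 772 and 2219 CPM in old libraries 2posI, 3posI and 4posI. As for Tnf, 4posI was above every young library and 2posI and 3posI were below them, and the log2 fold change was -0.39 (SE 0.37, edgeR adjusted p = 0.596). Nfkbiz encodes IκBζ, a nuclear cofactor needed for a subset of secondary NF-κB targets. Nfkbiz reached 904, 928, 704 and 784 CPM in young and 278.2, 280.0 and 777 CPM in old, so that 4posI lay within the young range. The log2 fold change of Nfkbiz was -0.90 (SE 0.36, 95% interval -1.73 to -0.07, edgeR adjusted p = 0.231).

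Tnfaip3 encodes A20, which removes activating ubiquitin chains from the receptor complex. It was measured at 881, 826, 669.8 and 769.8 CPM in young and at 223, 277 and 665.9 CPM in old, and had the largest fold change of the 10 genes. Its 3 old libraries were below the 4 young ones, although 4posI only just, at 84.6% of the young mean against 28.3 and 35.2% for 2posI and 3posI. The log2 fold change of Tnfaip3 was -1.02 (SE 0.36, 95% interval -1.83 to -0.21), with an unadjusted p of 0.0194 and an adjusted p of 0.179 in edgeR.

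**Figure D2:**
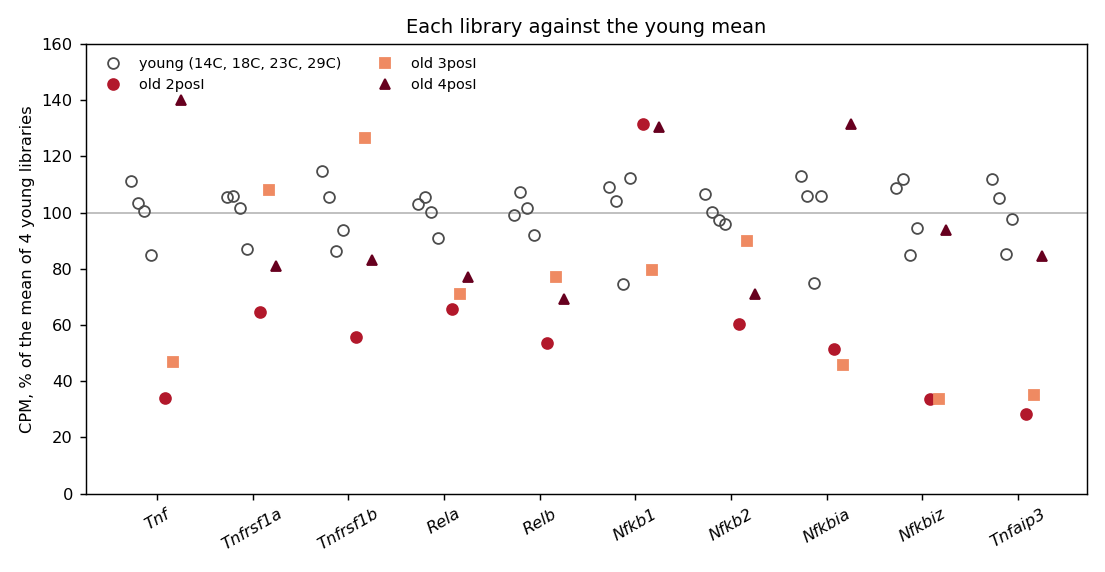
CPM of each gene in each library as a percentage of the mean of the 4 young libraries (grey line at 100). Tnf, Nfkbia, Nfkbiz and Tnfaip3 show 2posI and 3posI far below 4posI, at 28.3 to 51.4% against 84.6 to 140.2%, whereas the 3 old libraries lie close together for Rela.

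Over the 10 genes, edgeR called 0 at an adjusted p under 0.05, against 0.803% of all 17559 genes. The fitted level in old was lower for 9 and higher for 1, and the median log2 fold change was -0.44, against -0.01 over all genes. Without adjustment, 5 genes had a p under 0.05 with a lower level in old (Rela, Relb, Nfkb2, Tnfaip3 and Nfkbiz), where 8.79% of all genes had one. No member had an unadjusted p under 0.05 with a higher level, against 10.1% of all genes. All old libraries were below all young ones for 4 of the 10, against 9.07% of all genes, and above them for 0, against 8.67%. By DESeq2, 3 members were lower in old at an adjusted p under 0.05, against 3.73% of all genes. These were Rela (adjusted p = 0.00287, from 0.00287 to 0.252 over 17 alternative fits), Relb (0.0140, from 0.0140 to 0.245) and Tnfaip3 (0.0412, from 0.0412 to 0.355). By limma-voom, the test of the study, with or without quality weights for the libraries, 0 were called.

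The values of the induced genes rested on library 4posI. Without it, edgeR called Tnf at a log2 fold change of -1.31 (adjusted p = 0.04995), Nfkbiz at -1.58 (adjusted p = 0.0455) and Tnfaip3 at -1.66 (adjusted p = 0.0455), against 0.233% of all genes called as lower. Over the 17 alternative fits the adjusted p ranged up to 0.923 for Tnf, 0.450 for Nfkbiz and 0.355 for Tnfaip3. Nfkbia reached a log2 fold change of -1.05 without 4posI (edgeR adjusted p = 0.0739). Without 4posI every old library was below every young one for 7 of the 10 members, namely Tnf, Nfkb2, Rela, Relb, Nfkbia, Nfkbiz and Tnfaip3, against 16.1% of all genes. Labels give no reason to leave this library out. The subunits depended less on single libraries, and the log2 fold change of Rela stayed between -0.55 and -0.43 when each library was left out in turn. The ranges of the other subunits were wider than that of Rela. They were -0.70 to -0.45 for Relb, -0.61 to -0.31 for Nfkb2 and 0.07 to 0.39 for Nfkb1.

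**Figure D3:**
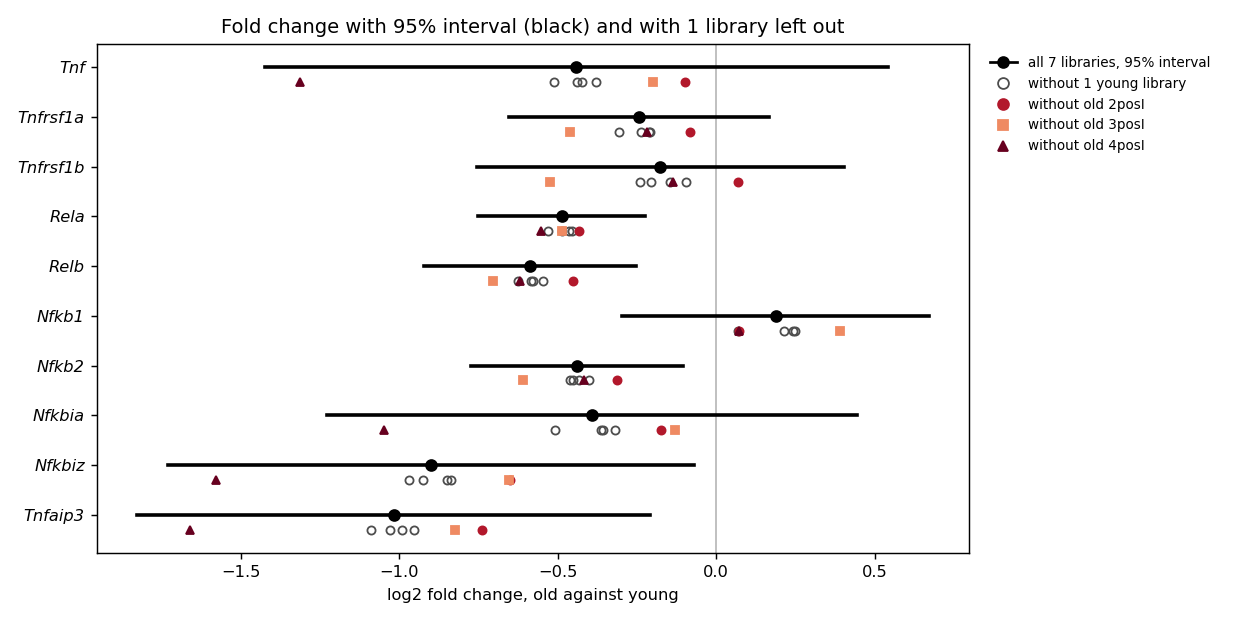
Log2 fold change of old against young for each gene, with the edgeR 95% interval in black and, below it, the values with 1 library left out. Without 4posI, Tnf, Nfkbia, Nfkbiz and Tnfaip3 lie between -1.66 and -1.05, and Rela varies only from -0.55 to -0.43.

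The genes whose pattern over the 7 libraries was most like that of Tnf were sought among 8145 genes with a mean of at least 10 CPM, by the mean absolute difference of centred log2 CPM. The 5 nearest were Atf3, a stress-induced transcription factor, at 0.20, the cation channel Trpm4 at 0.23, Nfkbia at 0.23, Hjurp, a chaperone of centromeric histones, at 0.24, and the amino acid transporter Slc7a1 at 0.24. Nfkbiz was at rank 6 and Tnfaip3 at rank 7, so that Nfkbia, Nfkbiz and Tnfaip3 stood among the 7 genes nearest to Tnf. Relb, at rank 273, and Rela, at rank 300, were farther off. Nfkb2 (rank 1000), Tnfrsf1a (1643), Tnfrsf1b (1694) and Nfkb1 (3268) were less alike. This is a description over libraries that differ in age and mouse at once.

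Immediate early genes, such as Fos, Jun, Egr1 and Atf3, are switched on within minutes by stress, tissue dissociation included, and the tissue was digested with papain in a warm step before sorting. The list of 10 genes used for them also held the heat shock genes Hspa1a and Hspa1b. Its summed level was 7526 to 11167 TPM in young libraries and 4153, 5134 and 9280 TPM in old libraries 2posI, 3posI and 4posI. In this sum the old libraries thus stood in the same order as for Tnf, with 2posI lowest and 4posI highest. Library 4posI was within the young range in this sum, whereas for Tnf it was above every young library. By gene, Fos, Fosb, Junb, Atf3 and Dusp1 were lowest in 2posI among the old libraries. Jun, Egr1, Ier2, Hspa1a and Hspa1b were lowest in 3posI, with Egr1 at 213 TPM there and 499 TPM in 2posI. In CPM, 1 of the 10 genes, Fosb, was lower in every old than in every young library, against 9.07% of all genes tested. The part of immediate early genes in the levels of Tnf, Nfkbia, Nfkbiz and Tnfaip3 was not tested. The microglia markers did not follow the order of the immediate early sum, since they summed to 5127 TPM in 2posI, 2126 TPM in 3posI and 5782 TPM in 4posI.

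**Figure D4:**
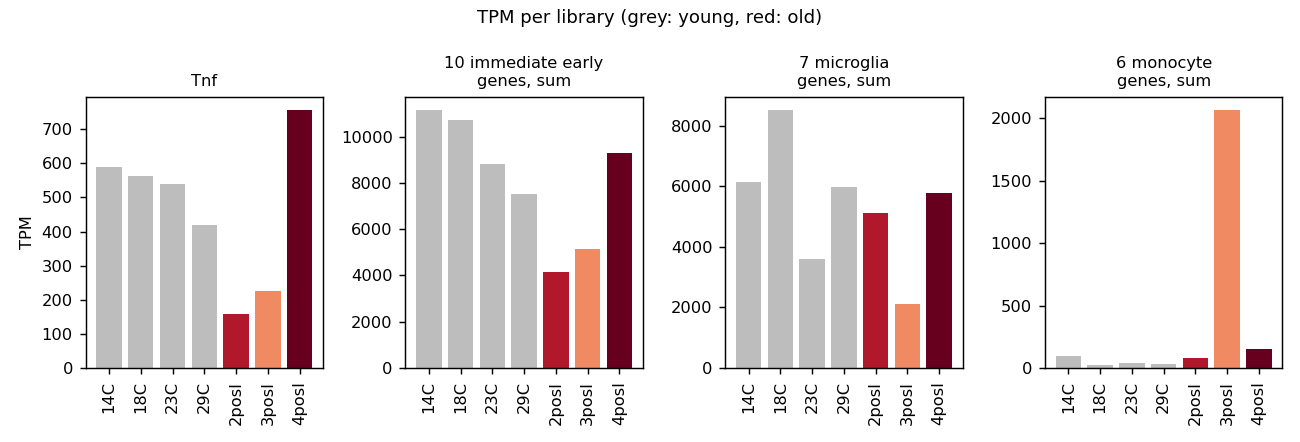
TPM per library of Tnf, and summed TPM of 10 immediate early and heat shock, 7 microglia and 6 monocyte marker genes. Grey bars are young, red bars are old, and each axis starts at 0. The immediate early sum is low in 2posI and 3posI as Tnf is, while monocyte markers are highest in 3posI, at 2071 TPM.

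Of other marker lists, 4 border macrophage genes summed to 809 TPM in 3posI and to 49.0 to 232 TPM in the other libraries. Of neutrophil genes, 5 summed to 13.2 to 298 TPM in young and 84.0 to 306 TPM in old libraries. Markers of T cells (up to 4.85 TPM), B cells (25.4), astrocytes (37.7), oligodendrocytes (20.8) and neurons (2.11) were low in summed TPM in every library. Endothelial genes were at 47.8 to 108 TPM in young and 32.8 to 43.4 TPM in old libraries. Their part in the levels of the 10 genes was not tested.

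The rest of the pathway was described with 75 further genes, from TNF family ligands to NF-κB targets, of which 72 could be tested. None was called by edgeR at an adjusted p under 0.05, and the fitted level in old was lower for 47 and higher for 25, for a median of -0.22 on the log2 scale. Without adjustment, 15 had a p under 0.05 with a lower and 5 with a higher level, shares to be read against 8.79 and 10.1% of all genes. In CPM, all old libraries were below all young ones for 15 of the 72 genes and above them for 4, against 9.07 and 8.67% of all genes. By DESeq2, 7 of these genes were called as lower and 3 as higher in old, against 3.73 and 4.26% of all genes.

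Among genes of TNF production and processing, Zfp36, which encodes the mRNA-decay factor tristetraprolin that limits Tnf, had a log2 fold change of -0.79 (SE 0.34). Rhbdf1, a cofactor of the sheddase of TNF, was at -0.75, and Adam17, that sheddase, at -0.24, with edgeR adjusted p of 0.253 to 0.275 over the 3 genes. Lta, which encodes lymphotoxin α, had at most 20 counts in every library. Ltbr, the lymphotoxin β receptor, was at -0.43 (edgeR adjusted p = 0.349). In the 13 adaptors, of which 6 were higher and 7 lower, the smallest p values belonged to Birc2, a ubiquitin ligase, at -0.27, Traf3 at 0.37 and Traf1 at 1.501, with edgeR adjusted p of 0.276 to 0.291. Traf1 was 13.7 CPM in 3posI and at most 3.00 CPM in the other libraries, and its log2 fold change without 3posI was -0.05.

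Of the kinases and their partners, 5 were lower and 5 higher in old. Map3k7, which encodes TAK1, the kinase that activates IKK, was at 12.4 to 15.4 CPM in young and 20.1 to 22.4 CPM in old, a log2 fold change of 0.65 (SE 0.13, edgeR adjusted p = 0.0669). Its binding partner Tab1 was lower, at 22.1 to 23.5 CPM in young and 15.1 to 16.6 CPM in old, a log2 fold change of -0.52 (edgeR adjusted p = 0.0798). Map3k8, a kinase bound to p105, was also lower, at a log2 fold change of -0.80 (edgeR adjusted p = 0.0968). In CPM the ages did not overlap in any of these 3 genes, which were named for their small p. Of the 10 kinases and partners tested, all old libraries were below all young ones for 3 and above them for 2. The shares over all genes were 9.07 and 8.67%. Rel, which encodes the remaining subunit c-Rel, was at 252.7, 226.1, 128.1 and 221.5 CPM in young and at 100.2, 113.8 and 167.0 CPM in old, with overlap and a log2 fold change of -0.71 (SE 0.26, edgeR adjusted p = 0.199).

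Of 14 other inhibitors and cofactors, 9 were lower and 5 higher. Nfkbid, which encodes the nuclear protein IκBNS, was at 263 to 326 CPM in young and at 134.1, 123.5 and 216.6 CPM in old libraries 2posI, 3posI and 4posI, a log2 fold change of -0.89 (SE 0.21, edgeR adjusted p = 0.0869). Tnip2, an A20-binding protein, was at -0.37 (edgeR adjusted p = 0.171) and Nfkbib, which encodes IκBβ, at -0.27 (edgeR adjusted p = 0.296). In CPM all 3 were lower in every old than in every young library, the only ones of the 14 to be so, against 9.07% of all genes. They were named for their small p. In TPM the ages overlapped for Tnip2 (up to 44.3 in old, from 43.8 in young) and Nfkbib (up to 98.9 in old, from 97.6 in young).

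Of 26 target genes, 19 were lower and 7 higher (median -0.43 on the log2 scale). Nlrp3, the inflammasome sensor, was at 204.5 to 224 CPM in young and at 77.3, 110.1 and 142.4 CPM in old, a log2 fold change of -0.95 (SE 0.20, edgeR adjusted p = 0.0660). The adhesion molecule Icam1 was at -0.84 (SE 0.19, edgeR adjusted p = 0.0801) and the growth factor Csf1 at -1.11 (SE 0.32, edgeR adjusted p = 0.132), and in all 3 the old library 4posI was nearest to the young ones. Nos2, the inducible nitric oxide synthase, had at most 20 counts in every library. In CPM, 4 of the 72 genes were above every young library in all 3 old ones, against 8.67% of all genes. They were Map3k7 and, chosen after their values were seen, its adaptor Tab2 (log2 fold change 0.64), the chemokine Ccl5 (1.40) and the receptor Cd40 (1.33). In TPM the ages overlapped for Tab2 (from 19.4 in old, up to 19.7 in young) and Cd40 (from 6.61 in old, up to 6.86 in young). Cd40 was at 6.44, 16.1 and 5.64 CPM in 2posI, 3posI and 4posI. Tnip3, at 1.35, was the fifth gene with a higher level and an unadjusted p under 0.05, and its ages overlapped.

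**Figure D5:**
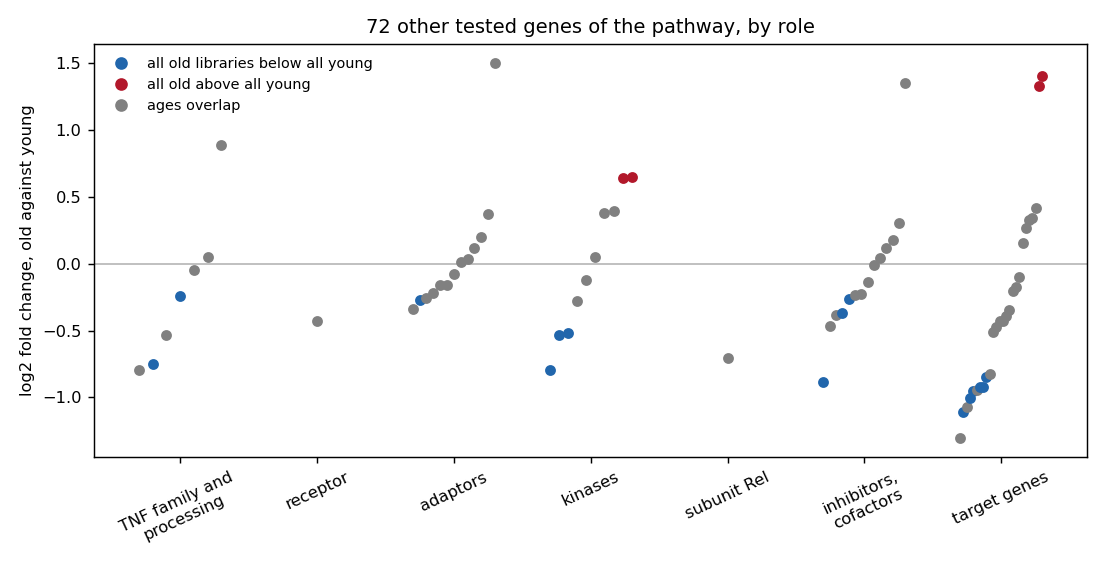
Log2 fold change of old against young for the 72 other tested genes, grouped by role, 1 point per gene and sorted within each role. Blue points (15 genes) had all old libraries below all young ones, red points (4 genes) all above, and 47 of the 72 points lie below 0.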

How the data were processed

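RNA of Bodipy+ microglia from 4 young and 3 old mice was sequenced. The authors trimmed reads with skewer, checked them with FastQC 0.11.5 (per the submitters' processing notes), aligned them with STAR on GRCm38 and estimated expression with RSEM from GENCODE m15. Versions of STAR and RSEM were not given in the sources used here. As values, the authors deposited expected counts (not normalized), TPM, FPKM (not used) and a transcript length per gene, the last a mean over transcripts in bases. Members were matched by symbol. The members and lists were chosen with earlier results of these data known.

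Expected counts were rounded. Genes with more than 10 counts in at least 1 library and not on X, Y or the mitochondrial genome (614 left out) were kept, 17559 in all. In R 4.3.3, edgeR 4.0.16 gave TMM factors, CPM and the quasi-likelihood test of age, with Benjamini-Hochberg adjustment and 0.05 as the threshold. Total counts were 36574083 to 53002386 per library, and no replicate pair was identical. The smallest p of an exact permutation test at this design is 0.0286. The script was tested on simulated data. The other fits used DESeq2 1.42.0, limma-voom from limma 3.58.1 (plain or weighted by library quality), upper-quartile or RLE scaling, 2 other filters, all chromosomes, an effective-length offset, log2(TPM + 1) with limma, and each library left out. Gene positions came from GENCODE vM21, in which 224 of 50686 identifiers were missing, and promoters from RefSeq.

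Beside the members, the text names the 3 pathway genes per role with the smallest p and at least 5 CPM in the higher age, any that passed the threshold, Rel, genes near 0, and the 5 genes nearest to Tnf. Other samples of the study were not analysed here. 1 marker gene is not reported here.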

Additional observations from a re-analysis of the deposited data

How the results depend on the processing

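Over 10 alternatives of test, scaling, filter and length, and 7 fits that left out 1 library each, 9 of the 10 members kept the sign of their log2 fold change; Tnfrsf1b ranged from -0.53 to 0.069 with 1 library left out. DESeq2 called 3 members, Rela at -0.48, Relb at -0.58 and Tnfaip3 at -1.01, and the fits without 1 library called 0 to 3 (3 without 4posI). With 1 library left out, Tnf ranged from -1.31 to -0.10, Nfkbiz from -1.58 to -0.65 and Tnfaip3 from -1.66 to -0.74. Members with all old libraries below all young ones numbered 4 to 7, and other pathway genes 15 to 26 (26 without 3posI and 23 without 4posI, where 14.8 and 16.1% of all genes were so, against 9.07% with all libraries), an alternative chosen after seeing the data.

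Of the other pathway genes, 0 were called by edgeR, 4 by limma-voom with quality weights, 10 by DESeq2, 1 without the filter on low counts, and 0 to 3 with 1 library left out. Of all genes, 141 were called by edgeR, 318 by limma-voom with quality weights, 1403 by DESeq2, 288 without the filter, 64 by limma on log2(TPM + 1), and 1 to 157 with 1 library left out (1 without 14C, 18C or 2posI and 157 without 3posI). The sign of Traf3 turned with the effective-length offset (-0.069) and on log2(TPM + 1) (-0.15), and Traf1 ranged from -0.048 to 2.00 with 1 library left out. With 1 mismatch allowed, 8 of the 10 promoter windows of members held a κB match, and 27.7% of all windows. The causes were not tested.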
